A study of Mus musculus with 4 samples.

Results

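Chemokine ligands and receptors were examined in the immune cells of the epididymal white adipose tissue (eWAT) of WT mice. The 42 genes, 28 ligands and 14 receptors, were chosen by gene symbol, and all of them were found among the 35869 genes listed. RNA-seq had been performed on cells bound by CD45 microbeads from the stromal vascular fraction (SVF), the cells left when adipocytes are removed. The donors were male C57BL/6 mice that were fed a normal diet (ND) or a high-fat diet (HFD) for 12 weeks from 8 weeks of age. There were 2 libraries per diet, and the comparison of HFD with ND asked how obesity changed gene expression in these cells. The number of mice behind a library is not given in the sources used here, so p-values measure only the spread between these libraries.

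Chemokines are small secreted proteins that guide leukocytes along a gradient by binding G protein-coupled receptors on the cell surface. Most receptors take several ligands and several ligands take more than one receptor, while a few pairs, such as Cxcl13 with Cxcr5, are close to exclusive. In adipose tissue, macrophages, T cells, dendritic cells, fibroblasts and endothelial cells all release chemokines, and the Ccl2 and Ccr2 pair is known for drawing blood monocytes into the fat of obese animals.

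The values are TPM, the share of a gene in all transcripts of a library after correction for gene length, and can be compared between genes within a library. The libraries held about 37500000 to 46800000 counted reads, as estimated from the smallest steps of the values, and a single read of a gene of 1 kb was worth 0.0607 to 0.0711 TPM. The CD45 gene Ptprc had 54.5 and 59.4 TPM on ND and 55.3 and 53.7 TPM on HFD. Replicates spread 1.73 times as widely as counting error in ND and 3.26 times in HFD. The HFD libraries also differed from each other in genes of other cells. Summed TPM of 7 fibroblast markers was 3032 in HFD replicate 1 and 6064 in HFD replicate 2, against 593.5 and 637.8 in ND. Summed TPM of 4 spermatid genes was 6108 in HFD replicate 1 and between 1644 and 1910 in the other libraries. How far these other transcripts bear on the chemokine genes was not tested.

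Chemokine genes were lower in HFD more often than higher. The summed TPM of the 42 genes was 16530 and 16460 in ND and 11890 and 12200 in HFD, or 1.65% of all TPM in each ND library against 1.19% and 1.22%. A differentially expressed gene (DEG) had an adjusted p-value under 0.05 (limma on log2(TPM + 1), Benjamini-Hochberg) and a change of at least 1.5-fold. Of the 42 genes, 24 were DEGs, of which 22 fell and 2 rose. Over all 16849 genes tested, 18.4% were DEGs, 10.3% lower and 8.08% higher. Another 14 of the 42 did not meet the rule, and Cxcl5, Cxcl11, Ccr6 and Ccr9 were too low to be tested. Among ligands, 14 fell and 2 rose of 28. Among receptors, 8 fell and 0 rose of 14, including Cxcr2, which passed the filter only through ND, where it is higher. The median log2 fold change of the 38 tested chemokine genes was -0.81, against 0.06 over all genes tested.

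**Figure D1:**
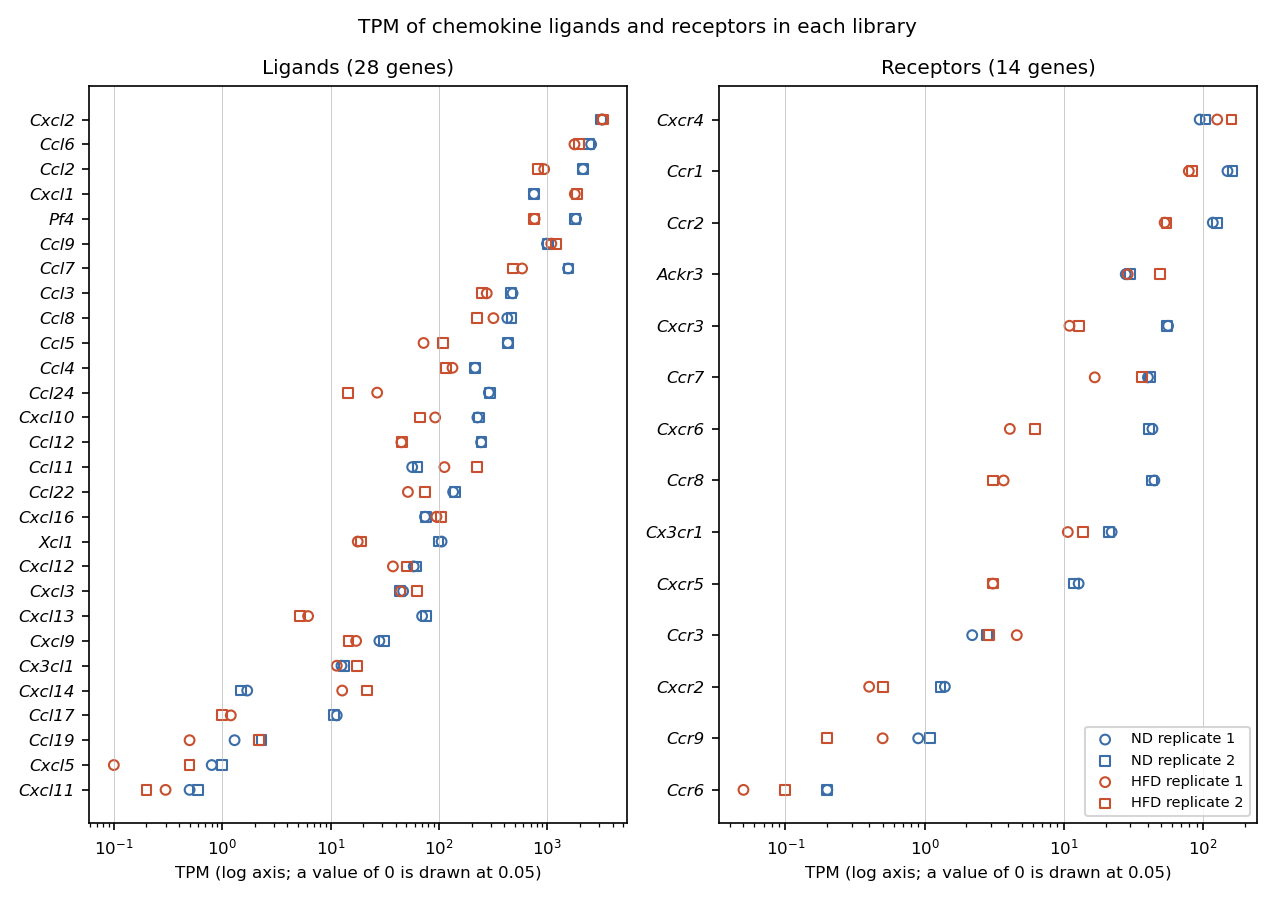
TPM of the 28 ligands (left) and 14 receptors (right) in each library, on a log axis, ordered by mean level. Blue marks are the 2 ND libraries and red marks the 2 HFD libraries. The ND marks nearly coincide for most genes, and for 30 of the 42 genes both red marks lie to the left of both blue marks.

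Both HFD values lay below both ND values for 26 of the 38 tested chemokine genes and above them for 8, while the ranges overlapped for 4. The same held, in that order, for 32.8% and 34.1% of all genes tested. The calls needed both ND libraries. Without ND replicate 1 or ND replicate 2, no gene of the 16849 was a DEG (limma, smallest adjusted p 0.167 and 0.161), although 3862 and 4024 genes had an unadjusted p under 0.05. Without HFD replicate 1 or HFD replicate 2, 27 chemokine genes were DEGs each time and included all 24, beside 18.1% and 25.2% of all genes tested. Without the filter on low values, with p-values adjusted over 35869 genes, 16 of the 24 stayed DEGs, and Ccl4, Ccl5, Ccl22, Cxcl9, Cxcl10, Cxcl14, Cxcr2 and Cx3cr1 did not. A single gene compared by an exact permutation of 2 against 2 libraries cannot give a p below 0.333. In RNA from many cells, fewer cells of a type and less RNA per cell cannot be told apart.

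**Figure D2:**
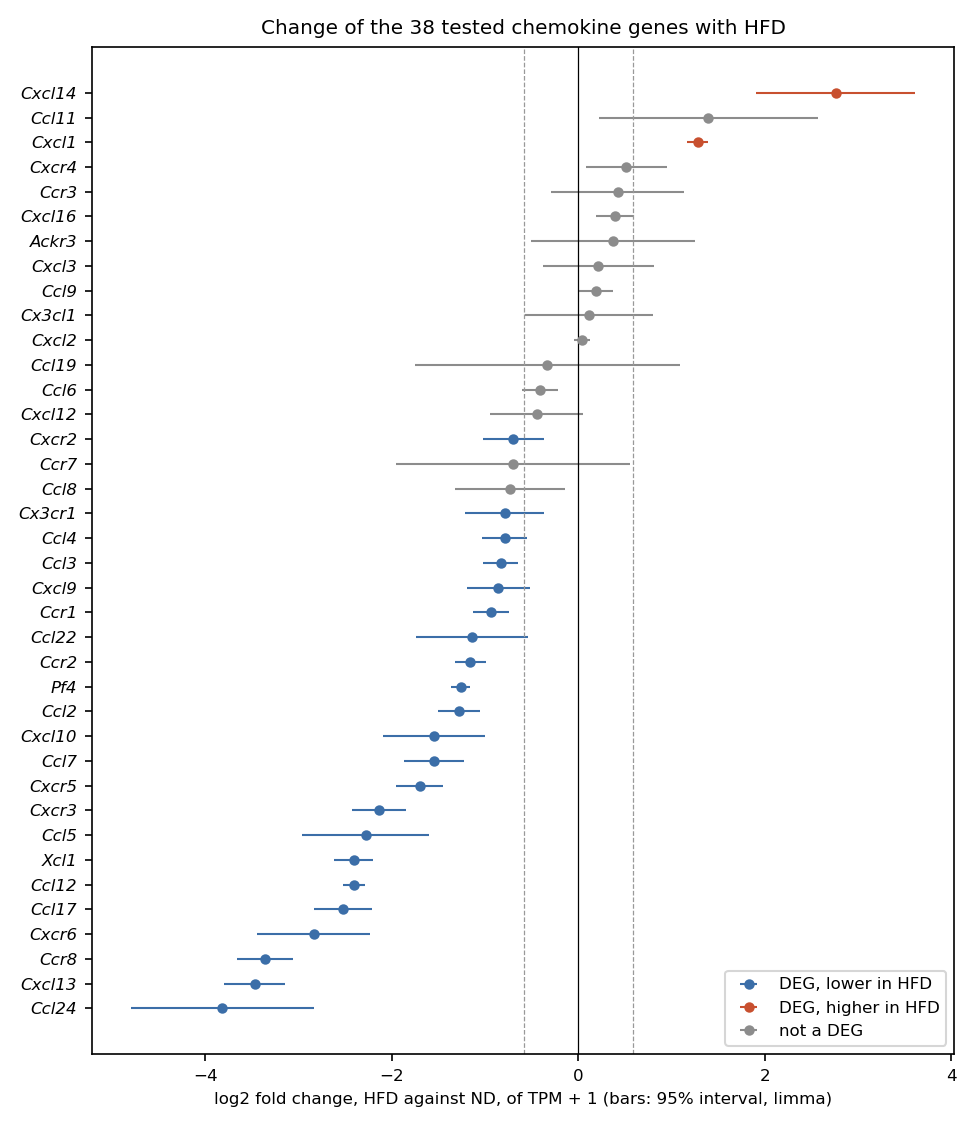
Log2 fold change, HFD against ND, of TPM + 1 for the 38 tested chemokine genes, with the 95% interval from limma as bars. Genes that fell reach from Cxcr2 at -0.70 to Ccl24 at -3.82, and the 2 that rose are Cxcl1 at 1.28 and Cxcl14 at 2.76.

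The ligands of Ccr2, the receptor that monocytes use to leave the bone marrow and enter inflamed tissue, were abundant in ND and lower in HFD. Ccl2 was at 2132.4 and 2144.8 TPM on ND and at 935.4 and 825.0 TPM on HFD. It fell by 1.28 ± 0.08 (SE) on the log2 scale (limma adjusted p = 0.00655), from 2139 ± 8.77 to 880.2 ± 78.1 TPM (SD, n = 2). Ccl7, a monocyte chemoattractant encoded next to it, was at 1554.5 and 1571.0 TPM on ND and 584.9 and 485.7 TPM on HFD, a log2 fold change of -1.55 ± 0.11 (limma adjusted p = 0.00817). Ccl12, which is found in mice and also binds Ccr2, was at 244.8 and 246.7 TPM on ND and at 45.0 and 45.9 TPM on HFD. Its log2 fold change was -2.41 ± 0.04 (limma adjusted p = 0.00378). All 3 ligands were lower in both HFD libraries without overlap. Their mix differed too, since Ccl12 was 0.115 of Ccl2 in each ND library and 0.0481 and 0.0556 of it in HFD.

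Ccl8, in mice a ligand of Ccr8, was at 427.0 and 466.5 TPM on ND and at 318.1 and 226.1 TPM on HFD. The groups did not overlap, but its log2 fold change of -0.73 (95% interval -1.32 to -0.14) did not pass (limma adjusted p = 0.0789), and it passed under median-ratio scaling of the libraries (0.0364) and without HFD replicate 1 (-0.98, 0.0451). Without HFD replicate 2 it was at -0.49 (0.0697). Ccl2, Ccl7, Ccl11, Ccl12 and Ccl8 lie together at chr11:82035571-82116799 (mm10, GENCODE vM21). In this cluster 3 genes fell and the other two, Ccl8 and Ccl11, were not DEGs.

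A further cluster of ligands at chr11:83525778-83664683 holds Ccl5, Ccl9, Ccl6, Ccl3 and Ccl4, of which Ccl3, Ccl4 and Ccl5 fell. Ccl3 and Ccl4 are made by activated macrophages and lymphocytes. Ccl3 was at 477.6 and 462.5 TPM on ND and 276.1 and 251.3 TPM on HFD, a log2 fold change of -0.83 ± 0.06 (limma adjusted p = 0.00917). Ccl4 was at 215.9 and 216.7 TPM on ND and 133.2 and 116.7 TPM on HFD, a log2 fold change of -0.79 ± 0.08 (limma adjusted p = 0.014). Ccl5, a product of T cells and NK cells as well as macrophages, was at 431.8 and 436.2 TPM on ND and at 72.1 and 108.8 TPM on HFD. It changed more than its neighbours, with a log2 fold change of -2.28 ± 0.23 (limma adjusted p = 0.0136).

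The other two genes of that cluster, which encode myeloid ligands of Ccr1, kept high levels in HFD. Ccl6 was at 2537.1 and 2424.3 TPM on ND and 1779.0 and 1954.9 TPM on HFD. Its log2 fold change of -0.41 ± 0.06 had an adjusted p of 0.029 by limma but was short of 1.5-fold. Ccl9 was at 992.6 and 1012.2 TPM on ND and at 1087.9 and 1198.4 TPM on HFD, slightly above the ND values without being a DEG (0.19 ± 0.06, limma adjusted p = 0.116). Within 1 cluster the log2 fold changes thus reached from -2.28 to 0.19.

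Ccl24, Ccl17 and Ccl22, ligands linked to type 2 immunity, fell in HFD. Ccl24, an eotaxin made by alternatively activated macrophages and encoded at chr5:135569937-135573049, was at 288.6 and 295.6 TPM on ND and 26.9 and 14.5 TPM on HFD, 14.1-fold lower. Its log2 fold change was -3.82 ± 0.33 (limma adjusted p = 0.0109), and it ranked 7 by this measure among the 1736 DEGs that were lower in HFD. Resident macrophage markers, led by Mrc1, fell as well (5 of 5), from a sum of 2664 and 2776 TPM to 1092 and 959.5 TPM, and their part in the lower macrophage ligands was not tested. Ccl17 and Ccl22, the ligands of Ccr4, are products of dendritic cells and macrophages that draw T helper 2 and regulatory T cells. Ccl17 was at 11.4 and 10.7 TPM on ND and at 1.2 and 1.0 TPM on HFD (-2.52 ± 0.10, limma adjusted p = 0.005). Ccl22 was at 135.1 and 139.7 TPM on ND and at 51.7 and 73.9 TPM on HFD (-1.14 ± 0.20, limma adjusted p = 0.0352). The call of Ccl22 was lost under median-ratio scaling (0.0639), while that of Ccl17 was not. Ccl17 and Ccl22 flank Cx3cl1 at chr8:94745590-94812036. Of the dendritic cell markers, 2 of 5 fell. Their sum was 465.5 and 485.9 TPM on ND and 154.1 and 176.4 TPM on HFD, and most of it was Cd209a, at 367.2 and 393.0 TPM on ND and 65.0 and 58.0 TPM on HFD, while Flt3, Clec9a and Fscn1 were not DEGs. The part of these cells in the ligands was not tested.

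Ccl11, another eotaxin, went the opposite way in its values. It was at 56.6 and 63.5 TPM on ND and 112.3 and 225.8 TPM on HFD, so both HFD values were higher but 2.01-fold apart. The log2 fold change of 1.40 (95% interval 0.22 to 2.57) did not pass (limma adjusted p = 0.0853). It passed without HFD replicate 1 (1.9, 0.0365) and without HFD replicate 2 (0.89, 0.0491). Fibroblasts are a known source of Ccl11, and the summed fibroblast markers of HFD replicate 2 were 2.0 times those of HFD replicate 1. The part of fibroblasts in the values of Ccl11 was not tested. Ccl19, which guides Ccr7-bearing cells to lymph nodes, was near the limit of the filter at 1.3 and 2.3 TPM on ND and 0.5 and 2.2 TPM on HFD, with overlap (-0.33 ± 0.48, limma adjusted p = 0.649).

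Of the ligands of Cxcr2, which draw neutrophils, Cxcl1 rose, Cxcl2 and Cxcl3 were not DEGs and Cxcl5 was not tested. Cxcl2 had the highest mean TPM of the 42 genes and was at 3185.4 and 3144.5 TPM on ND and at 3233.1 and 3258.1 TPM on HFD. Its log2 fold change was 0.04 (95% interval -0.05 to 0.12, limma adjusted p = 0.43), and the sign turned when TPM were rescaled without the 50 highest genes (-0.025). Cxcl1 was at 753.5 and 752.6 TPM on ND and 1793.4 and 1868.6 TPM on HFD. It rose 2.43-fold, from 753.0 ± 0.636 to 1831 ± 53.2 TPM (SD, n = 2), with a log2 fold change of 1.28 ± 0.04 (limma adjusted p = 0.00411).

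Cxcl1 was thus the abundant chemokine gene that rose, and its ratio to Cxcl2 within a library was 0.237 and 0.239 in ND and 0.555 and 0.574 in HFD. Cxcl3, at 46.7 and 43.8 TPM on ND and 44.2 and 62.8 TPM on HFD, overlapped between the diets (0.22 ± 0.20, limma adjusted p = 0.486). Cxcl5 did not pass the filter at 0.8 and 1.0 TPM on ND and 0.1 and 0.5 TPM on HFD. Cxcl5, Pf4, Cxcl3, Cxcl1 and Cxcl2 form a cluster at chr5:90759360-90905938. Pf4, which platelets store and tissue macrophages also express, was at 1841.4 and 1790.6 TPM on ND and 763.5 and 750.6 TPM on HFD. Pf4 fell, with a log2 fold change of -1.26 ± 0.03 (limma adjusted p = 0.00402), in the same cluster as Cxcl1, which rose.

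Promoter sequences are shown for Cxcl1, Cxcl2 and Cxcl3 because these neighbours share a proximal NF-kB motif while only Cxcl1 among them was a DEG. NF-kB is a transcription factor family that inflammatory signals activate. The windows are from RefSeq on GRCm38.p6, plus strand, and the capitals mark 2 overlapping matches to the 10-letter NF-kB consensus that together span 11 bases. They lie at chr5:90891149-90891209 for Cxcl1, chr5:90903777-90903837 for Cxcl2 and chr5:90786003-90786063 for Cxcl3, with the capitals ending 61, 87 and 63 bases before the start of the gene.
Cxcl1: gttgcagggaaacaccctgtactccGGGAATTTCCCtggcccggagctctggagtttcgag
Cxcl2: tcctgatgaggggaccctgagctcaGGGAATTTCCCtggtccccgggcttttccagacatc
Cxcl3: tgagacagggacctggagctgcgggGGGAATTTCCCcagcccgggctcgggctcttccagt

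The letters in capitals were identical in the 3 genes. Of the chemokine genes, 31 had a promoter entry in RefSeq, and 7 of these held an NF-kB consensus on either strand within the 250 bases before the start, against 4.46% of 27025 genes with entries of the same length. The other 4 were Ccl9, Ccr3, Ccr6 and Cxcl10. Of these 7 genes, Cxcl10 fell, Cxcl1 rose, Ccl9, Ccr3, Cxcl2 and Cxcl3 were not DEGs and Ccr6 was not tested. A match describes letters in a window and is not evidence of binding.

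The interferon-induced ligands Cxcl9, Cxcl10 and Cxcl11 draw effector T cells and NK cells through Cxcr3, and Cxcl9 and Cxcl10 fell in HFD. Cxcl10 was at 226.3 and 234.8 TPM on ND and 92.2 and 66.6 TPM on HFD (log2 fold change -1.54 ± 0.18, limma adjusted p = 0.0179). Cxcl9 was at 28.2 and 31.0 TPM on ND and 17.2 and 14.6 TPM on HFD (-0.86 ± 0.11, limma adjusted p = 0.0212). Neither gene overlapped between the diets. Cxcl11 was not tested, with 0.5 and 0.6 TPM on ND and 0.3 and 0.2 TPM on HFD. The 3 genes lie at chr5:92321347-92365485, and exons of Cxcl10 share 133 bases with Art3 on the opposite strand, which was at or below 3.2 TPM in each library.

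The promoter of Cxcl10, which fell, is shown because it held NF-kB matches like that of Cxcl1, which rose, together with a match to the interferon-stimulated response element (ISRE, searched on both strands as GAAA, any 2 bases and GAAA again). The windows are on the minus strand of GRCm38.p6, in RefSeq, at chr5:92349068-92349127, chr5:92349014-92349073 and chr5:92348958-92349017 in the order given, with the match in capitals.
ISRE: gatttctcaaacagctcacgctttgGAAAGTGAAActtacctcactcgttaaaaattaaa
NF-kB, distal: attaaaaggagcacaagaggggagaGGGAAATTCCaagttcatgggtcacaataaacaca
NF-kB, proximal: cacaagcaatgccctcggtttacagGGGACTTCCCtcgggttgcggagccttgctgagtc

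The ISRE letters stood in 3 of the 31 chemokine promoters (Ccl19, Cxcl10 and Cxcl14) and in 3.46% of all promoters. Of these genes Cxcl10 fell, Cxcl14 rose and Ccl19 was not a DEG. A GAS motif, the site of STAT factors (TTCNNNGAA), stood in 3 of 31 (Ccl17, Ccr6 and Cxcl14) and in 8.13% of all promoters, and an AP-1 motif (TGANTCA) in 3 of 31 (Ccl9, Ccr3 and Cxcl10) and in 7.82%. Both were searched on both strands over the same 250 bases.

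Among the remaining CXC ligands, Cxcl13 and Cxcl14 changed most and in opposite directions. Cxcl13, which draws B cells and is encoded at chr5:95956951-95961068, was at 69.9 and 76.4 TPM on ND and 6.2 and 5.2 TPM on HFD. It was 12.8-fold lower, with a log2 fold change of -3.47 ± 0.11 (limma adjusted p = 0.00439). Cxcl14, a ligand that fibroblasts and epithelia express without stimulation, is encoded at chr13:56288643-56296551 and was at 1.7 and 1.5 TPM on ND and 12.8 and 21.5 TPM on HFD. It was 10.7-fold higher, with a log2 fold change of 2.76 ± 0.29 (limma adjusted p = 0.0142). All 4 libraries were separated by diet for both genes. Of the HFD libraries, replicate 2 had the higher level of Cxcl14 and also of the fibroblast markers, and the part of fibroblasts in its rise was not tested.

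Cxcl12, which retains CXCR4-bearing cells in tissue, was at 58.5 and 60.9 TPM on ND and 37.6 and 50.4 TPM on HFD. It was not a DEG (-0.45 ± 0.17, limma adjusted p = 0.144), but passed without HFD replicate 2 (-0.65, 0.0331). Cxcl16, a membrane-bound ligand that also takes up oxidized lipoprotein, was at 74.3 and 76.5 TPM on ND and 94.8 and 104.5 TPM on HFD. Its log2 fold change of 0.40 ± 0.07 had an adjusted p of 0.0341 by limma but was short of 1.5-fold, and its exons share 552 bases with Zmynd15 on the opposite strand, which was at or below 8.7 TPM. Cx3cl1, the other membrane-bound ligand, was at 12.6 and 13.4 TPM on ND and 11.4 and 17.4 TPM on HFD, with overlap (0.11 ± 0.23, limma adjusted p = 0.752). Xcl1, a product of NK cells and CD8 T cells that draws cross-presenting dendritic cells, was at 105.8 and 99.2 TPM on ND and 17.8 and 19.2 TPM on HFD. It fell, with a log2 fold change of -2.41 ± 0.07 (limma adjusted p = 0.00411).

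Receptors of lymphocytes showed the largest changes among the 14 receptors. Ccr8, found on T helper 2 and regulatory T cells, was at 44.8 and 43.1 TPM on ND and 3.7 and 3.1 TPM on HFD, 12.9-fold lower (log2 fold change -3.36 ± 0.10, limma adjusted p = 0.00415). Cxcr6, found on tissue-resident T cells and innate lymphocytes, was at 43.4 and 41.2 TPM on ND and 4.1 and 6.2 TPM on HFD, 8.21-fold lower (-2.84 ± 0.20, limma adjusted p = 0.0085). Cxcr3, the receptor of effector T cells and NK cells, was at 56.2 and 55.2 TPM on ND and 11.0 and 12.9 TPM on HFD (-2.13 ± 0.10, limma adjusted p = 0.0053). The lower values of the 3 receptors came without overlap between the diets. Cxcr5, the B cell receptor for Cxcl13, was at 12.8 and 11.9 TPM in ND and at 3.1 TPM in both HFD libraries (-1.70 ± 0.09, limma adjusted p = 0.00563). Exons of Cxcr5 share 110 bases with Bcl9l on the opposite strand, which was at 5.4 TPM in both ND libraries and 3.3 and 3.1 TPM in HFD.

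Lymphocyte markers moved in the same direction as these receptors. Of the T cell markers, 6 of 6 were DEGs lower in HFD, and their summed TPM was 135.8 and 144.4 in ND and 16.9 and 32.3 in HFD. Of the B cell markers, 4 of 4 fell, from a sum of 113.1 and 111.5 TPM to 22.3 and 26.5 TPM. Of the NK cell markers, 4 of 4 fell, from 163.5 and 168.5 TPM to 34.5 and 27.1 TPM. The part of lymphocyte number in the values of Ccr8, Cxcr3, Cxcr5, Cxcr6, Xcl1 and Ccl5 was not tested.

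**Figure D3:**
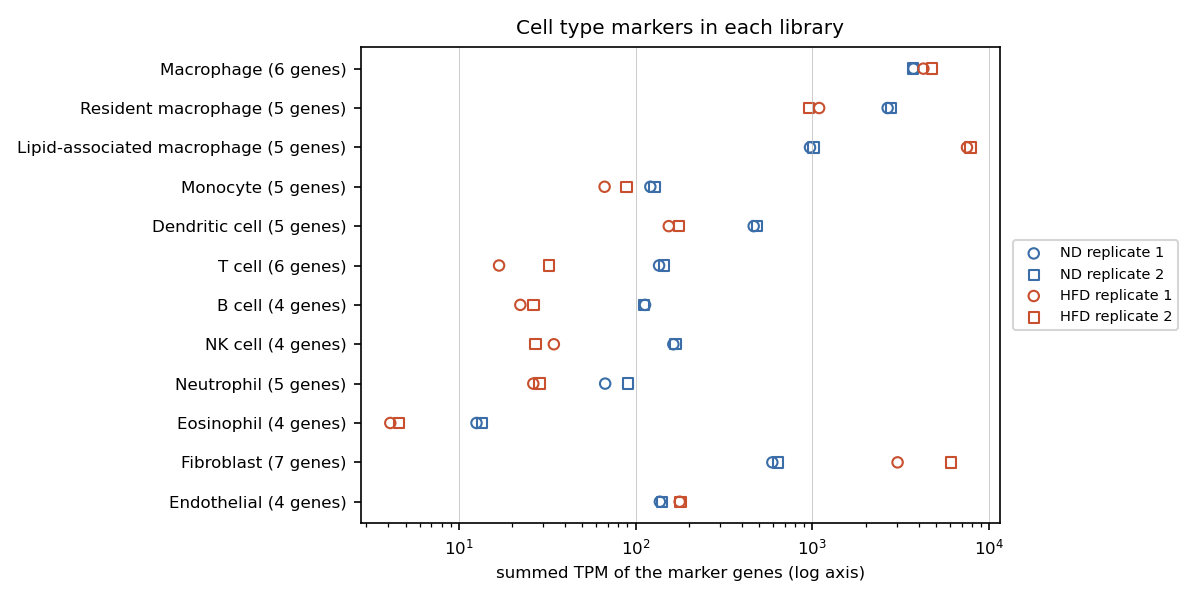
Summed TPM of the marker genes of 12 cell types in each library, on a log axis, with ND in blue and HFD in red. The T cell, B cell and NK cell sums are lower in both HFD libraries, the lipid-associated macrophage sum is higher (969.2 and 1014 in ND, 7485 and 7851 in HFD), and the fibroblast sums of the HFD libraries are apart.

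Receptors of monocytes and macrophages fell by smaller factors. Ccr1, shared by monocytes, macrophages and neutrophils, was at 150.2 and 163.3 TPM on ND and 79.2 and 83.5 TPM on HFD (-0.94 ± 0.07, limma adjusted p = 0.00837). Ccr2 was at 117.8 and 125.5 TPM on ND and 53.1 and 54.7 TPM on HFD (-1.16 ± 0.06, limma adjusted p = 0.00536). Cx3cr1, a receptor of patrolling monocytes and some resident macrophages, was at 22.1 and 21.2 TPM on ND and 10.7 and 13.7 TPM on HFD (-0.79 ± 0.14, limma adjusted p = 0.0367). All 3 were lower in both HFD libraries, and the ratio of Ccr2 to Ccr1 within a library was 0.784 and 0.769 in ND and 0.67 and 0.655 in HFD. The call of Cx3cr1 was lost under median-ratio scaling (0.0792) and quantile normalization (0.0576). Summed monocyte markers were at 121.2 and 128.1 TPM on ND and 66.8 and 88.9 TPM on HFD, with 2 of 5 lower. Of the macrophage markers, Adgre1 and Cd68 rose and the other 4 of 6 were not DEGs, and their sum, led by Cd14, was 3728 and 3702 TPM on ND and 4243 and 4742 TPM on HFD.

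The myeloid and lymphocyte receptors share neighbourhoods on chromosome 9. Ccr9, Cxcr6, Ccr1, Ccr3 and Ccr2 lie at chr9:123678439-124113557, where 3 fell, Ccr3 did not pass and Ccr9 was not tested. Cx3cr1 and Ccr8 lie at chr9:119901616-120094906 and both fell. Exons of Cx3cr1 share 78 bases with the antisense gene Gm33858, which was at 1.7 and 1.5 TPM on ND and at 0.4 TPM in both HFD libraries.

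Other receptors were low or did not pass. Cxcr4, the receptor of Cxcl12 and the most abundant receptor by mean TPM, was at 94.8 and 104.5 TPM on ND and 126.7 and 160.5 TPM on HFD, higher in both HFD libraries but not a DEG (0.51 ± 0.15, limma adjusted p = 0.0864). Ackr3, a scavenging receptor that removes Cxcl12, was at 27.9 and 29.9 TPM on ND and at 28.8 and 49.2 TPM on HFD (0.37 ± 0.30, limma adjusted p = 0.425), and passed only without HFD replicate 1 (0.75, limma adjusted p = 0.0473). Ccr7, which takes dendritic cells to lymph nodes, was at 40.3 and 41.6 TPM on ND and at 16.7 and 36.6 TPM on HFD (-0.70 ± 0.42, limma adjusted p = 0.305), and passed only without HFD replicate 2 (-1.25, limma adjusted p = 0.0276). The HFD libraries thus disagreed on Ccr7 and Ackr3 by more than the distance between the ND libraries.

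Receptors of granulocytes were near the limit of the filter. Cxcr2, the neutrophil receptor, was at 1.4 and 1.3 TPM on ND and 0.4 and 0.5 TPM on HFD. It passed the filter only through ND, and its call (-0.70 ± 0.11, limma adjusted p = 0.029) was lost under median-ratio scaling (0.0512) and quantile normalization (0.104). The neutrophil gene Ly6g was at or below 0.1 TPM in each library, and 3 of 5 neutrophil markers fell. Ccr3, the eosinophil receptor, was at 2.2 and 2.8 TPM on ND and 4.6 and 2.9 TPM on HFD, with both HFD values above both ND values, and it was not a DEG (0.42 ± 0.24, limma adjusted p = 0.282). Summed eosinophil markers were lower, at 12.6 and 13.5 TPM on ND and 4.1 and 4.6 TPM on HFD. Of these 4 markers, Prg2 (7.9 TPM in both ND libraries, 1.8 and 2.9 TPM on HFD) and Il5ra (1.5 and 2.0 against 0.2 TPM in both HFD libraries) were called lower, Il5ra having passed the filter only through ND, Siglecf did not pass, and Epx was listed at 0 in each library. Their part in the values of Ccr3 was not tested. Ccr6 was at or below 0.2 TPM and Ccr9 at or below 1.1 TPM in each library, so neither was tested.

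**Figure D4:**
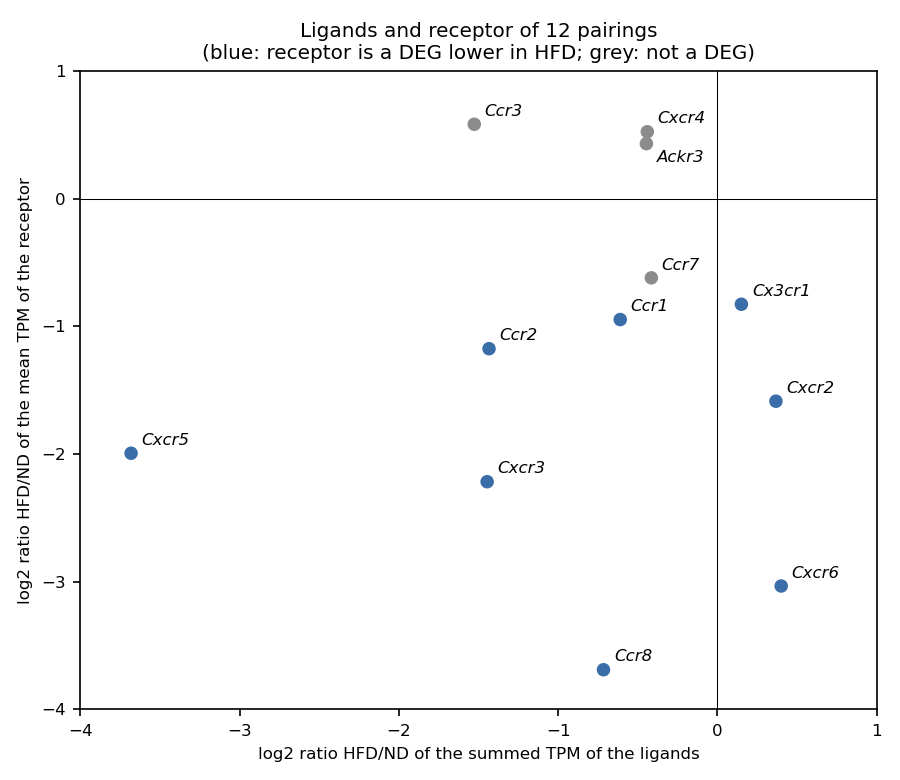
Log2 ratio, HFD over ND, of the summed TPM of the ligands (horizontal) and of the mean TPM of the receptor (vertical) for 12 receptors, each named by its receptor. Blue points are receptors that fell and grey points receptors that were not DEGs. Cxcr5, Cxcr3, Ccr2, Ccr1 and Ccr8 lie at the lower left, with both ratios below 0, as does Ccr7, which was not a DEG. Cxcr2, Cxcr6 and Cx3cr1 lie at the lower right, where the ratio of the receptor is below 0 and that of the ligand sum is not.

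The genes were then set side by side as 27 pairs of a ligand and a receptor, for 12 receptors. Both genes fell in 9 pairs, the receptor alone fell in 7, the ligand alone in 3, and neither was a DEG in 4. In 3 pairs one gene was not tested, and in the pair of Cxcl1 and Cxcr2 the ligand rose and the receptor was called lower. The counts include Cxcr2, which lies near 1 TPM, passed the filter only through ND and lost its call under the scalings named above, in the pair with Cxcl1 and in 2 of the 7 pairs where the receptor alone fell. Cx3cr1, whose call was also lost under scalings, gives another of the 7. A shared receptor ties pairs together, so these are not independent counts.

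Ligand and receptor were both called lower for Ccr1, Ccr2, Cxcr3 and Cxcr5. The summed ligands of Ccr1, of which 3 of 5 fell, were 0.655 of their ND level in HFD and Ccr1 itself was 0.519 of it. The summed ligands of Ccr2 in HFD were 0.37 of their ND level and Ccr2 itself was 0.443 of it. For Cxcr3 the ligand sum was 0.367 and the receptor 0.215 of ND. For Cxcr5 the ligand Cxcl13 was 0.0779 and the receptor 0.251 of ND. In all 4 cases the ND and HFD libraries did not overlap on either side.

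For other pairs the sides parted. The sum of Cxcl1, Cxcl2, Cxcl3 and Cxcl5 in HFD was 1.29 of ND, while Cxcr2 was 0.333 of it. Cxcl16 was 1.32 of ND, while Cxcr6 was 0.122 of it. Cx3cl1, which overlapped between the diets and was not a DEG, was 1.11 and Cx3cr1 0.564 of ND. Of these 3 receptors, the call of Cxcr6 held under both scalings, while those of Cxcr2 and Cx3cr1 did not. Ccr3 showed the reverse, since its ligand sum was 0.347 and its own level 1.5 of ND, although Ccr3 was not a DEG.

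**Figure D5:**
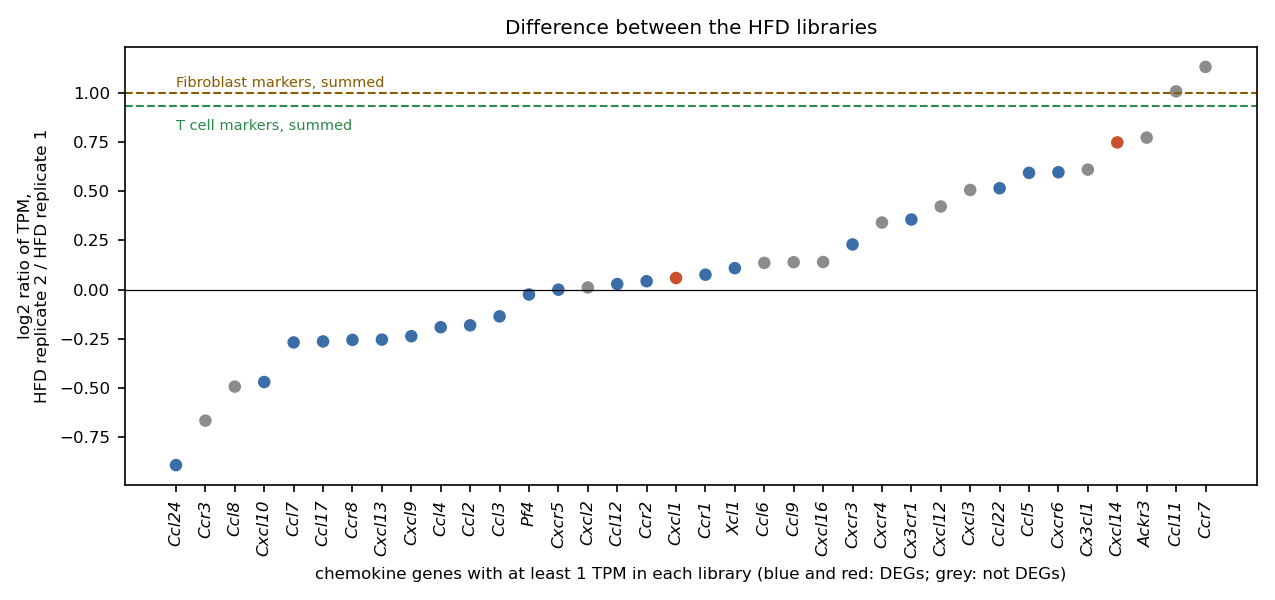
Log2 ratio of TPM, HFD replicate 2 over HFD replicate 1, for the chemokine genes with at least 1 TPM in each library. Dashed lines give the same ratio for the summed fibroblast and T cell markers. Ccr7 and Ccl11 are at the top, at 2.19 and 2.01 on the linear scale, and Ccl24 is lowest.

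The HFD libraries differed from each other for several chemokine genes, as the plot of their ratio shows. Ccr7 was 2.19-fold and Ccl11 2.01-fold higher in HFD replicate 2, while Ccl24 there was 0.539 of its level in HFD replicate 1. The other plotted genes lay between, among them the DEGs Cxcl14 at 1.68 and Cxcl10 at 0.722. In HFD replicate 2 the summed T cell markers were 1.91-fold and the B cell markers 1.19-fold higher, and the NK cell markers were 0.786 of HFD replicate 1. The part of these cells in the chemokine values was not tested. Most of the abundant ligands were close, among them Cxcl2, Cxcl1, Pf4 and Ccl12. Each side is 1 library, so these differences have no replicate check.

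The other genes of the pathway were read by count. Of 22 other chemokine ligands and receptors, 13 could be tested, 4 fell, 0 rose and 9 did not pass, beside 18.4% of all genes tested that were DEGs. Ccl26, an eotaxin, was at 29.9 and 26.0 TPM on ND and 1.5 and 0.5 TPM on HFD (-3.90 ± 0.30, limma adjusted p = 0.00936). Ccl1, the other ligand of Ccr8, was at 11.0 and 8.9 TPM on ND and 2.0 and 1.7 TPM on HFD (-1.94 ± 0.15, limma adjusted p = 0.0091). Ccr4, the receptor of Ccl17 and Ccl22, passed the filter only through ND and was at 1.2 and 1.3 TPM on ND and 0.3 and 0.2 TPM on HFD (-0.85 ± 0.11, limma adjusted p = 0.0217). The endothelial scavenger Ackr1 also fell (-0.85 ± 0.12, limma adjusted p = 0.0237).

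Of 30 genes that carry the signal inside the cell, 4 fell, 2 rose and 24 did not pass. This was 20.0% of them, close to the 18.4% over all genes tested. Rgs1, which shortens G protein signals from chemokine receptors, was at 729.5 and 794.5 TPM on ND and 1551.7 and 1695.9 TPM on HFD (1.09 ± 0.07, limma adjusted p = 0.008). Pik3r5, a regulatory subunit of PI3-kinase gamma that was named after its values were seen, also rose (0.74 ± 0.09, limma adjusted p = 0.0194). Rac2, a GTPase of leukocyte movement, was at 365.1 and 361.9 TPM on ND and 208.9 and 213.4 TPM on HFD (-0.78 ± 0.04, limma adjusted p = 0.0053). The other genes that fell were Grk6, a kinase that desensitizes receptors, at -1.02 (limma adjusted p = 0.00655), Tiam1, an activator of Rac, at -0.84 (0.0214) and Plcb2, a phospholipase C, at -0.76 (0.016). Of 8 other chemoattractant receptors, 2 fell and 0 rose, beside 10.3% of all genes tested that fell. Ltb4r1, the receptor of leukotriene B4, was at 50.8 and 49.4 TPM on ND and 8.0 and 7.4 TPM on HFD (limma adjusted p = 0.00402). Cmklr1, the receptor of chemerin, was at 101.9 and 103.9 TPM on ND and 55.7 and 52.6 TPM on HFD (limma adjusted p = 0.00632).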

How the data were processed

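RNA-seq was performed on CD45+ cells from eWAT of mice fed ND or HFD, with 2 samples per diet, grouped by their labels. The authors deposited a TPM value for each gene in each sample. Before deposit, the authors trimmed reads from stranded mRNA libraries (Trim Galore 0.4.2, cutadapt 1.9.1), aligned them to mm10 (STAR 2.6.1e), removed duplicates with Sambamba, counted reads per gene (featureCounts 1.6.2) and normalized the counts. Removal of duplicates can lower the most abundant genes, and TPM is a share of all transcripts. The annotation and the use of strand in counting are not given in the sources used here.

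Genes with at least 1 TPM in at least 2 samples were compared as log2(TPM + 1), with a pseudocount of 1, by limma 3.58.1 in R 4.3.3 (lmFit, eBayes, variance trend), with Benjamini-Hochberg adjustment over all 16849 genes. No count model was used. Fold changes on this scale understate those of low genes. The steps were tested on simulated data in which both groups had the spread of the ND libraries. The HFD libraries spread more widely, so this does not check the error rate of the calls.

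The chemokine genes, the pairs and the marker and pathway lists were chosen with earlier results of these data known. All 42 genes are accounted for, with full statistics for DEGs, the most abundant genes and genes of a pair, and the up to 5 DEGs with the largest log2 fold change are named per pathway list, with Pik3r5 added. Depth was estimated from 180 to 209 microRNA genes per sample and is approximate. Coordinates are from GENCODE vM21 and promoters from RefSeq (GRCm38.p6). Alternatives were other pseudocounts, filters and scalings, no variance trend, a replicate block, a 2-fold limit and each sample left out.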

Additional observations from a re-analysis of the deposited data

How the results depend on the processing

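Over all genes, the 3098 DEGs became 2015 with a pseudocount of 5, 1779 with no filter, 1604 at a limit of 2-fold and between 0 and 4241 with each library left out in turn, where an ND or HFD group of 1 library is assumed to vary like the other. The 24 chemokine DEGs were 16 with no filter, 18 at a limit of 2-fold, 22 to 24 with other pseudocounts, scalings, a mean TPM of at least 5 or no variance trend, and 0 to 27 with each library left out. With no filter, 1 chemokine gene, Cxcl1, rose. With each library left out, 0 to 4 rose and 0 to 24 fell.

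Replicate numbers did not pair the libraries (correlation of deviations -0.015). With a replicate block, 812 genes were DEGs, and of the chemokine genes 17 were, among which 1 rose. The chemokine genes that lost their call with the block were Ccl4, Ccl22, Cxcl9, Cxcl10, Cxcl14, Cxcr2 and Cx3cr1.

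The sign of the log2 fold change turned for genes that were not DEGs. Cxcl2 was at -0.025 when rescaled without the 50 highest genes. With each library left out, Ccl19 was at -0.88 to 0.22, Cxcl3 at -0.032 to 0.46, Cx3cl1 at -0.17 to 0.39 and Ackr3 at -0.0040 to 0.75, the extremes being those without HFD replicate 1 or HFD replicate 2. The cause of these changes was not tested. Genes near 1 TPM, such as Cxcr2 and Ccl19, are limited by depth.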

Other observations

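Chemokine genes expressed by lymphocytes were also divided by T cell or B cell genes within each library, although NK cells, innate lymphocytes and macrophages express several of them too, a choice made after their values had been seen and given without a test. Cxcr3 per summed TPM of Cd3d, Cd3e and Cd3g was 0.531 and 0.488 in ND and 0.973 and 0.554 in HFD. Cxcr6 on the same scale was 0.41 and 0.364 in ND and 0.363 and 0.266 in HFD, and Ccr8 was 0.423 and 0.381 in ND and 0.327 and 0.133 in HFD. Ccl5 was 4.08 and 3.86 in ND and 6.38 and 4.67 in HFD. Cxcr5 per summed TPM of 4 B cell genes was 0.113 and 0.107 in ND and 0.139 and 0.117 in HFD. Xcl1 per summed TPM of the Cd3 genes was 0.999 and 0.877 in ND and 1.58 and 0.824 in HFD. The ratios of Cxcr3, Ccl5 and Cxcr5 were thus above both ND values in both HFD libraries, that of Ccr8 was below them, that of Xcl1 overlapped, and that of Cxcr6 could not be ordered within the rounding of the TPM values.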
